A study of Mus musculus with 8 samples.

Results

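A set of 9 genes of calcium handling is described here in megakaryocytes (MKs) cultured with or without mesenchymal stromal cells (MSCs). They were chosen by gene symbol from the deposited table of gene counts, and all 9 were found among its 13387 genes. They are Stim1 and Orai1 of store-operated entry, the inositol trisphosphate (IP3) receptor genes Itpr1, Itpr2 and Itpr3, the pump genes Atp2a2, Atp2a3 and Atp2b1, and Mcu of the mitochondrial uniporter. The series compared 4 libraries of wild-type C57BL/6 murine MKs cultured alone with 4 libraries of such MKs cocultured for 18 hours with wild-type bone marrow MSCs, sorted as CD45-Ter119-CD31-CD51+CD140a+ cells. No other treatment was named for either group. Per the methods, the MKs were a CD41-enriched marrow fraction rather than single sorted cells, all cultures held thrombopoietin, and several wells were pooled for each library. The labels describe the sequenced cells as MKs separated from platelets, whereas the methods describe platelets, so the libraries are named here by their labels. The source paper counts its replicates as mice, with n = 4 in each group. The labels do not tie a library to a mouse, and p-values measure the spread between these libraries.

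Calcium stored in the endoplasmic reticulum of MKs and platelets is released through IP3 receptors when agonist receptors activate phospholipase C. Emptying of the store is sensed by STIM1, which opens ORAI1 channels in the plasma membrane, and this store-operated entry sustains platelet activation. SERCA pumps refill the store, plasma membrane pumps such as PMCA1 expel calcium from the cell, and the uniporter, whose pore is MCU, carries calcium into mitochondria.

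Libraries held 4939874 to 12523616 counts, and the lowest count of any of the 9 genes was 15. Replicate 3 of the cocultures stood apart: it lacked 1012 genes that all 7 remaining libraries held at 10 counts or more, and no other library lacked more than 4 in this way. Each of the 9 genes is therefore also tested without it. Values are CPM, a gene's counts relative to the total of its library, scaled with TMM factors. MK and platelet markers were present, with a summed level of 2322 to 2571 CPM in MKs cultured alone and 1806 to 2357 CPM in cocultures, and 1 of 15 was called lower (Nfe2, named after its values were seen). The highest of them, Pf4, averaged 838.2 CPM in MKs cultured alone and 1067 CPM in cocultures. The mean log2(CPM + 1) of the 15 was 5.87 to 6.11 in MKs cultured alone and 4.57 to 5.62 in cocultures, without overlap. Their median log2 fold change was -0.365, with 9 negative and 6 positive. Markers of other marrow cells moved with the groups. All 10 neutrophil markers were called lower, with a summed level of 78640 to 81340 CPM in MKs cultured alone and 4208 to 9634 CPM in cocultures. MSC markers rose from between 28.6 and 43.8 CPM in sum to between 1677 and 4858 CPM. Of 13 listed, 10 were in the table and 8 were tested, and 7 were called higher. Pdgfra, the gene of the sorting marker CD140a, and Lepr were not among the 7. Of 11 macrophage markers 10 were called higher, and their sum without Lyz2, which passed the test lower, went from between 179.0 and 242.5 CPM to between 1310.0 and 2268 CPM. Lyz2 averaged 14980 CPM in MKs cultured alone and 9336 CPM in cocultures. With it the sum was lower in cocultures, at 9896 to 12140 CPM against 12700 to 17590 CPM. B cell markers were called lower in 4 of 8 (878.8 to 939.1 against 90.8 to 232.5 CPM in sum). Eosinophil, mast cell and basophil markers were called lower in 9 of 10 (1827 to 2354 against 99.1 to 193.9 CPM). Of the 4 endothelial markers tested 1 was called lower (Tek, named after its values were seen; 113.0 to 133.0 against 34.4 to 44.3 CPM, and 173.2 CPM in replicate 3 of the cocultures), and no erythroid marker was called by edgeR (1 at an unadjusted p under 0.05 and 1 by DESeq2; 29.3 to 41.1 against 18.3 to 20.8 CPM, and 63.7 CPM in replicate 3). No marker of these lists was at 0 in every library of a group. In bulk RNA, fewer cells of a type and less RNA per cell cannot be told apart, and the part of these cells in the results below was not tested.

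Coculture libraries held less RNA of the store-operated channel gene Orai1 and of Atp2a3, the gene of the SERCA3 pump. Of the 9 genes, all of which passed the filter on low counts, 2 were called lower, Orai1 and Atp2a3 (edgeR's quasi-likelihood test, adjusted p of at most 0.05, fold of at least 2, and 1 CPM or more on average in a group). By the same rule 7.31% of the 11722 genes tested were called lower and 13.2% higher. None of the 9 was called higher by edgeR, although 1 was at an unadjusted p under 0.05 and 1 was called by DESeq2, Itpr3 in both instances. In the lower direction 5 were at an unadjusted p under 0.05 by edgeR. DESeq2 passed 5 lower and called 3 of them, Orai1, Atp2a3 and Itpr2. Its log2 fold change of Itpr2 was -1.17 (adjusted p = 0.0484). Stim1 (DESeq2, adjusted p = 0.00109) and Mcu (0.014) passed below a fold of 2. Of the 11722 genes DESeq2 called 1259 lower and 1857 higher. In 5 of the 9 (Stim1, Orai1, Itpr2, Atp2a3 and Mcu) every coculture was below every library of MKs cultured alone, as in 21.1% of all genes tested, and in 1 (Itpr3) every coculture was above, as in 19.3%. The median log2 fold change was -0.75 over the 9 genes and 0.034 over all genes tested. Without replicate 3 of the cocultures, edgeR's adjusted p was at most 0.05 for 6 genes that were lower and 2 that were higher, against 25.9% and 29.2% of the 12267 genes then tested, and the median was -0.71. By the full rule 3 were then called lower and 2 higher (15.4% and 20.6% of all genes), and 5 were lower and 2 higher without overlap (25.4% and 30.7%).

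**Figure D1:**
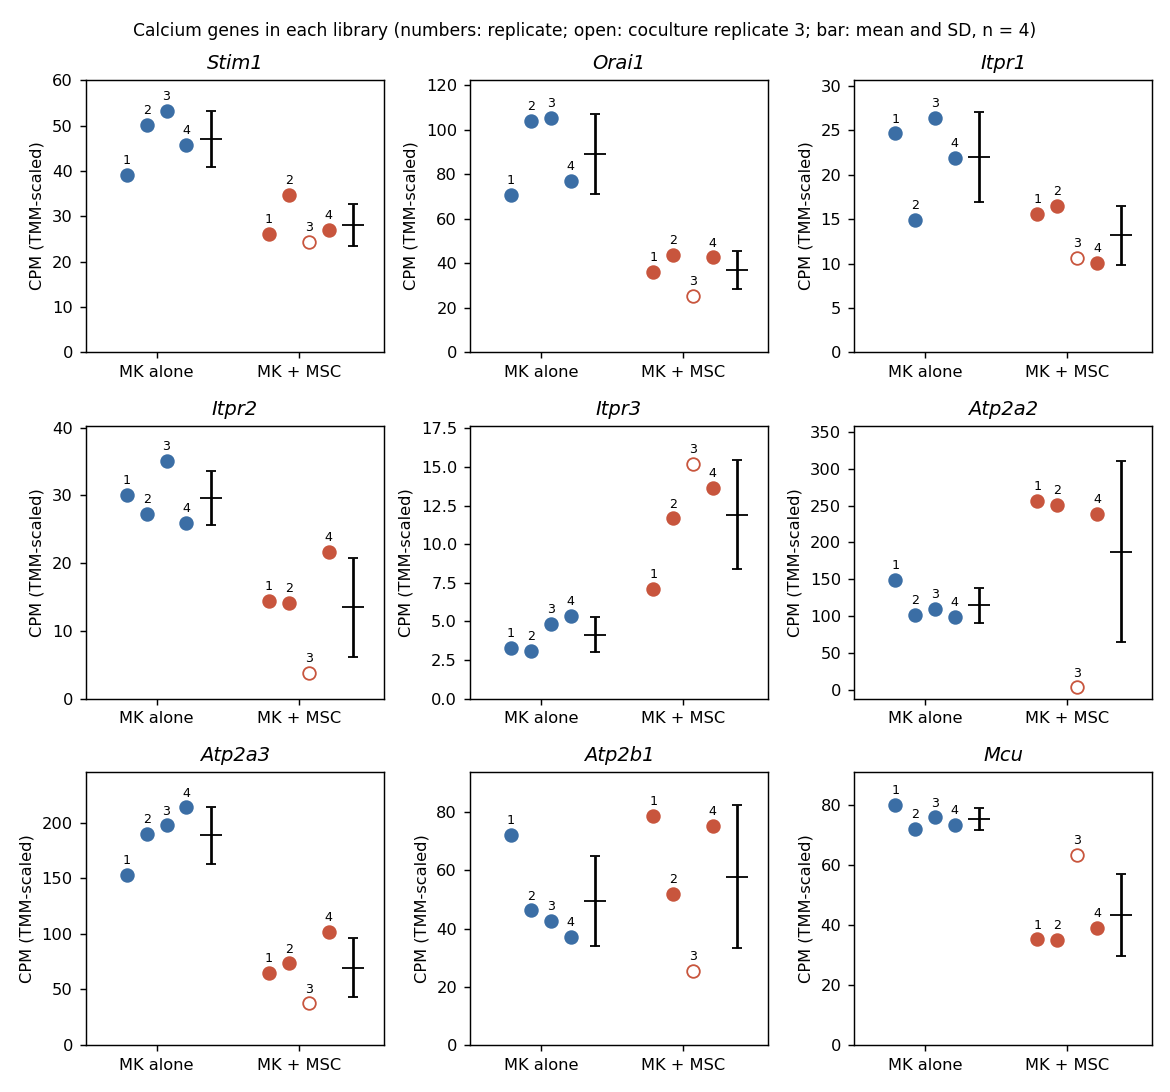
CPM (y axis, TMM-scaled, linear) of each of the 9 genes in the 4 libraries of MKs cultured alone (blue) and the 4 cocultures (red), with replicate numbers, an open circle for replicate 3 of the cocultures, and the mean and SD beside each group. Orai1 and Atp2a3 lie lower in all cocultures, and Atp2a2 lies at 2.92 CPM in replicate 3 against 238.5 to 256.3 CPM in the other cocultures.

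Orai1 encodes the pore subunit of the store-operated calcium channel and lies at chr5:123015074-123030456 on the plus strand (GRCm38). Its level was 70.6, 103.9, 105.4 and 77.0 CPM in MKs cultured alone and 36.1, 43.9, 25.2 and 42.7 CPM in cocultures. The groups did not overlap, and the lowest coculture was replicate 3. Orai1 fell 2.42-fold, with a log2 fold change of -1.27 ± 0.27 (SE; edgeR, adjusted p = 0.00908), and by -1.15 ± 0.20 without replicate 3 (adjusted p = 0.000114). Libraries were also scaled to the summed counts of the MK and platelet markers, of which Pf4 was the highest. The log2 fold change of Orai1 was then -0.98, which passed the test (edgeR, adjusted p = 0.0406) but not the fold of 2.

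Stim1, at chr7:102267806-102437319 on the plus strand, encodes the calcium sensor of the store. It was at 39.1, 50.1, 53.1 and 45.7 CPM in MKs cultured alone and at 26.1, 34.8, 24.3 and 27.0 CPM in cocultures. Every coculture was below every library of MKs cultured alone, but the difference did not pass the test (log2 fold change -0.75 ± 0.26, SE; edgeR, adjusted p = 0.068). It passed without replicate 3 of the cocultures, at -0.71 ± 0.20 (adjusted p = 0.00618). The log2 ratio of Stim1 to Orai1 counts within a library, which does not depend on scaling, averaged -0.91 with an SD of 0.14 over the 4 libraries of MKs cultured alone, and -0.38 with an SD of 0.26 over the 4 cocultures. The difference of 0.53 had p = 0.0286, below which 4 against 4 libraries cannot go, and 0.0571 after Benjamini-Hochberg adjustment over the 4 ratios compared (two-sided exact permutation test). It was 0.42 without replicate 3 of the cocultures.

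The promoters of the genes that were called lower are shown beside that of Itpr3, the gene with the highest log2 fold change of the 9. They are RefSeq windows on GRCm38.p6 from 250 bases before to 50 bases after the start site, 5′ to 3′ on the strand of the gene. Capitals mark matches on either strand to AGATAA (known for factors of the GATA family), CGGAAG (ETS factors), TGTGGT (RUNX factors) and GGGCGG (the GC box), some of which overlap each other. The windows are chr5:123014824-123015123 for Orai1, chr11:72960919-72961218 for Atp2a3 and chr17:27057054-27057353 for Itpr3, all on the plus strand.
Orai1: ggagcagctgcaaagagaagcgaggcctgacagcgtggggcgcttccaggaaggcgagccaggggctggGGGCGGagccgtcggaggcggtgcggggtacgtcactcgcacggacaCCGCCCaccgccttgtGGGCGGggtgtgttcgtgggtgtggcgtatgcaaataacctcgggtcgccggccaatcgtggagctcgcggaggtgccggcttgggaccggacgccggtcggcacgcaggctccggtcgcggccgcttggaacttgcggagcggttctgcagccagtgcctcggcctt
Atp2a3: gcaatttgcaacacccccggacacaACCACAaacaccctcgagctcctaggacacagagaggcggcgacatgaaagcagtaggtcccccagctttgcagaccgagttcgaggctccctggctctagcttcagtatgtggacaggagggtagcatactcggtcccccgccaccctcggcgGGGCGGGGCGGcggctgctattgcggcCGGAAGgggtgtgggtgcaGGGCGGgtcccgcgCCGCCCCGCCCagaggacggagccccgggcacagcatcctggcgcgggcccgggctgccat
Itpr3: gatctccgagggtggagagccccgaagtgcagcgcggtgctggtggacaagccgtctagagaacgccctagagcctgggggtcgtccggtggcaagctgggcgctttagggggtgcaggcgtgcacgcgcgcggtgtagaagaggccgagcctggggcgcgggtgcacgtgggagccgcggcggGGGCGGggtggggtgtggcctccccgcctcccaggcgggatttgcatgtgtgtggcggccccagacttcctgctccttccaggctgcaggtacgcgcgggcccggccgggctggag
A window was found for 7 of the 9 genes, and for Atp2b1 there were 2. Itpr1 and Atp2a2 had none in the table used. GGGCGG was found in 7 of the 8 windows, against 35.7% of all 32851 promoters, and Mcu was the gene without it. CGGAAG and TGTGGT were each found in 1 window, that of Atp2a3, against 16.9% and 16.8% of all promoters, and AGATAA in 0 of 8 against 11.2%. The windows held 21 to 54 CpG dinucleotides, where the median of all promoters was 7. The Orai1 window held 3 matches to the GC box and the Itpr3 window 1. These letters describe the windows and are not evidence of binding.

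The 3 IP3 receptor genes did not move together. Itpr2 and Itpr1, which were the higher of the 3 per base of exon in MKs cultured alone, had negative log2 fold changes, and Itpr3 had a positive one. Itpr2 (chr6:146108299-146502223, minus strand) was at 30.1, 27.3, 35.03 and 25.9 CPM in MKs cultured alone and at 14.5, 14.2, 3.86 and 21.6 CPM in cocultures. All cocultures were lower, and replicate 3 was the lowest. Its log2 fold change of -1.13 ± 0.50 (SE) did not pass the test (edgeR, adjusted p = 0.137), and without replicate 3 it passed at -0.85 ± 0.23 (adjusted p = 0.00465).

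Itpr1 (chr6:108213096-108551109, plus strand) was at 24.6, 14.9, 26.4 and 21.9 CPM in MKs cultured alone and at 15.6, 16.5, 10.6 and 10.03 CPM in cocultures. Replicate 2 of the MKs cultured alone lay within the range of the cocultures. The log2 fold change was -0.73 ± 0.38 (SE; edgeR, adjusted p = 0.202), and -0.65 ± 0.26 without replicate 3 of the cocultures, where it passed the test (adjusted p = 0.0449).

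Itpr3 (chr17:27057304-27122223, plus strand) had the fewest counts of the 3 in each library of MKs cultured alone. It was at 3.30, 3.08, 4.86 and 5.35 CPM in those and at 7.08, 11.7, 15.2 and 13.7 CPM in cocultures, where replicates 3 and 4 held more counts of it than of Itpr1. Every coculture was above every library of MKs cultured alone, with replicate 1 the lowest of them. The log2 fold change of 1.52 ± 0.50 (SE), a 2.86-fold difference, did not pass the test (edgeR, adjusted p = 0.058), and without replicate 3 of the cocultures it was called at 1.34 ± 0.34 (adjusted p = 0.00301). The span of an antisense gene, Itpr3os, overlaps that of Itpr3. Spans of genes on the opposite strand also overlap those of Orai1 (Gm2479), Stim1 (Gm18255), Itpr1, Itpr2, Atp2a2 and Mcu. None of these overlapping genes was among the genes counted. Use of strand is not given in the sources used here, and whether their reads entered the counts of the members was not tested.

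The composition of the IP3 receptor transcripts was given as shares of their summed counts per base of exon. Itpr3 made up 12.6% ± 2.99 (SD, n = 4) of them without MSCs and 45.2% ± 15.4 (SD, n = 4) in coculture, or 38.1% ± 6.99 without replicate 3 (SD, n = 3). Itpr2 made up 54.9% ± 4.95 in MKs cultured alone and 29.9% ± 13.8 in cocultures, or 36.4% ± 5.63 without replicate 3. The log2 ratio of Itpr3 to Itpr2 counts was between -3.15 and -2.26 in MKs cultured alone and between -1.02 and 1.97 in cocultures, without overlap. Its difference of 2.85 had p = 0.0286, or 0.0571 adjusted over the 4 ratios (two-sided exact permutation test), and it was 2.19 without replicate 3 of the cocultures. The ratio of Itpr1 to Itpr2 differed by 0.62 with overlapping groups (p = 0.314, 0.419 adjusted, exact permutation test), and was 0.20 without replicate 3 and 1.05 without replicate 4 of the cocultures, so no difference was detectable in 4 against 4 libraries.

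**Figure D2:**
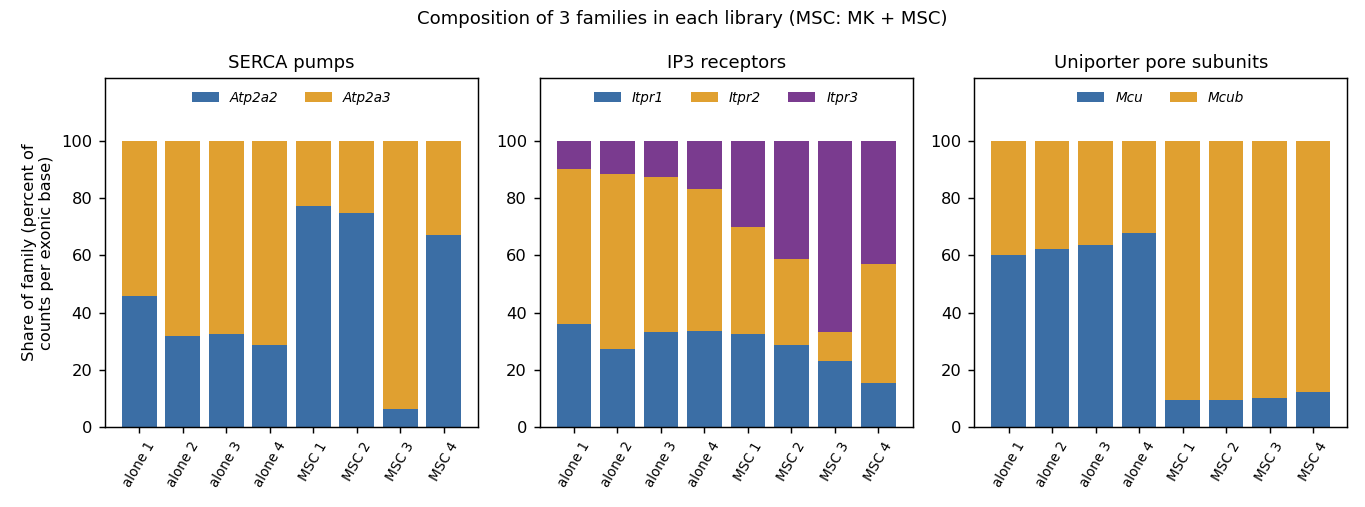
Share of each gene in the summed counts per base of exon of its family (y axis, percent) in each of the 8 libraries, for SERCA pumps, IP3 receptors and the uniporter pore subunits. Mcu made up 60.1% to 67.7% of the pore subunits in MKs cultured alone and 9.24% to 12.1% in cocultures, and replicate 3 of the cocultures differs from the others in the SERCA panel.

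The SERCA genes moved in opposite directions in 3 of the 4 cocultures. Atp2a3 encodes SERCA3, a pump of hematopoietic cells that is abundant in platelets, and lies at chr11:72961169-72993044 on the plus strand. It was at 153.3, 190.1, 197.5 and 213.7 CPM in MKs cultured alone and at 65.0, 73.3, 37.3 and 101.8 CPM in cocultures. The groups did not overlap. Atp2a3 fell 2.72-fold, with a log2 fold change of -1.44 ± 0.30 (SE; edgeR, adjusted p = 0.0089), and by -1.26 ± 0.20 without replicate 3 (adjusted p = 4.27e-05).

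Atp2a2 encodes SERCA2, the pump found in most cell types, and lies at chr5:122453513-122502225 on the minus strand. It was at 149.5, 101.4, 109.2 and 98.7 CPM in MKs cultured alone and at 256.3, 251.3, 2.92 and 238.5 CPM in cocultures. In replicate 3 of the cocultures it had 28 counts, against 1380 to 2714 in the other cocultures, while each of the others was above every library of MKs cultured alone. That library decided the result: the log2 fold change was 0.71 ± 0.89 (SE; edgeR, adjusted p = 0.612) with it, and 1.099 ± 0.18 without it, where Atp2a2 was called higher (adjusted p = 6.04e-05).

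Atp2a3 made up 54.1% to 71.4% of the SERCA counts per base of exon in MKs cultured alone. It made up 22.6%, 25.2% and 33.0% in replicates 1, 2 and 4 of the cocultures, and 93.6% in replicate 3. The log2 ratio of Atp2a2 to Atp2a3 counts averaged -0.73 with an SD of 0.48 without MSCs and 0.33 with an SD of 2.68 in coculture (n = 4 each), a difference of 1.06 that was within the spread (p = 0.514, also 0.514 adjusted over the 4 ratios, exact permutation test). With another coculture left out the difference was 0.51 to 0.76. Without replicate 3 of the cocultures it was 2.39 and the groups did not overlap, although 3 against 4 libraries cannot reach a p below 0.0571.

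Atp2b1 encodes the plasma membrane calcium pump PMCA1 and lies at chr10:98914406-99026143 on the plus strand. It was at 72.1, 46.2, 42.5 and 37.1 CPM in MKs cultured alone and at 78.6, 52.0, 25.5 and 75.2 CPM in cocultures. The groups overlapped, and the log2 fold change of 0.23 ± 0.39 (SE) did not pass the test (edgeR, adjusted p = 0.717), nor did 0.46 ± 0.23 without replicate 3 of the cocultures (adjusted p = 0.102). A change of this pump was thus not detectable here.

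Mcu encodes the pore of the mitochondrial calcium uniporter and lies at chr10:59446984-59616692 on the minus strand. Its level was 80.1, 71.9, 75.8 and 73.3 CPM in MKs cultured alone and 35.1, 34.9, 63.4 and 39.1 CPM in cocultures. MKs cultured alone lay within a narrow range, and every coculture was below it, with replicate 3 the nearest. The log2 fold change of -0.80 ± 0.26 (SE) did not pass the test (edgeR, adjusted p = 0.053), and without replicate 3 Mcu was called lower at -1.07 ± 0.17 (adjusted p = 5.69e-05).

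Mcub, the paralog of Mcu whose product joins the pore and lowers its activity, moved the other way. It was at 10.1, 8.22, 8.18 and 6.65 CPM in MKs cultured alone and at 65.6, 62.8, 107.9 and 54.1 CPM in cocultures, without overlap. Mcub rose with a log2 fold change of 3.13 ± 0.33 (SE; edgeR, adjusted p = 0.000227), and with 2.86 without replicate 3 (adjusted p = 7.8e-09). The log2 ratio of Mcu to Mcub counts, which was chosen after the values were seen and was not tested, was 2.97, 3.12, 3.20 and 3.45 in MKs cultured alone and -0.90, -0.85, -0.77 and -0.47 in cocultures. Replicate 3 of the cocultures lay within the range of the others in this ratio, unlike in that of the SERCA genes. Per base of exon, Mcu made up 63.5% ± 3.19 (SD, n = 4) of both genes without MSCs and 10.2% ± 1.27 (SD, n = 4) in coculture. MSC markers and 10 of 11 macrophage markers rose in the same libraries, and their part in the Mcub level was not tested.

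**Figure D3:**
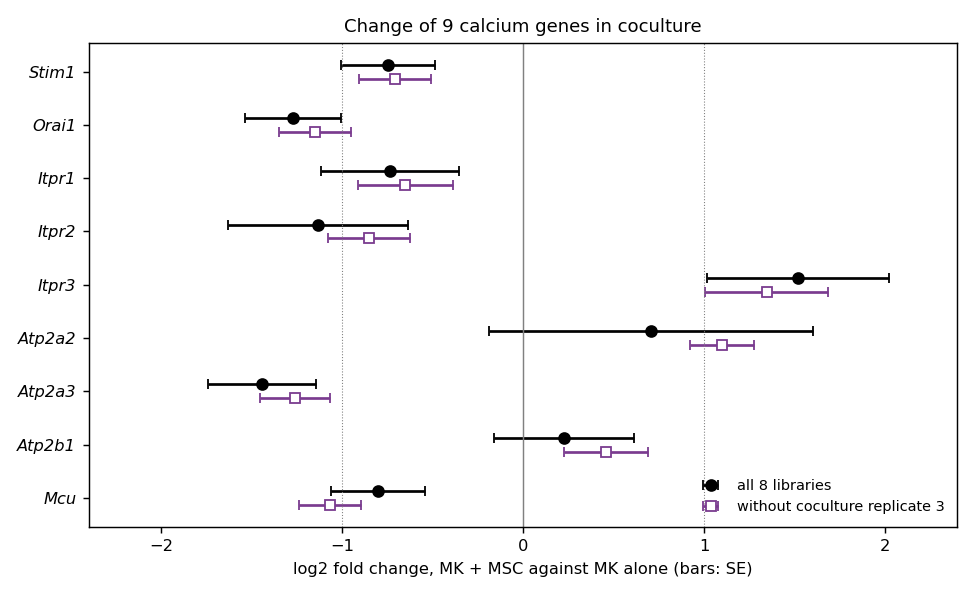
Log2 fold change (x axis) of each of the 9 genes in cocultures against MKs cultured alone, by edgeR with all 8 libraries (filled circles) and without replicate 3 of the cocultures (open squares), with SE bars and dotted lines at a fold of 2. Atp2a2 has the widest bar, 0.89, which narrows to 0.18 without that library, while Orai1 and Atp2a3 lie beyond the dotted line in both.

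The levels of the 9 genes were ordered by CPM per kilobase of exon, a scale on which genes can be compared. In MKs cultured alone Orai1 (38.9 ± 7.85, SD, n = 4) and Atp2a3 (35.7 ± 4.84) were at the top, with ranges that overlapped each other and no other gene. Atp2a2 (18.9 ± 3.89) and Mcu (10.8 ± 0.517) followed, each apart from its neighbors. Stim1 (4.53 ± 0.586) and Atp2b1 (3.25 ± 1.02) overlapped, and Itpr2 (2.0 ± 0.271), Itpr1 (1.20 ± 0.276) and Itpr3 (0.46 ± 0.125) came last, each apart from the next. In cocultures Atp2a2 came first at 30.8 ± 20.2, or 40.9 ± 1.51 without replicate 3, and Orai1 (16.1 ± 3.72) and Atp2a3 (13.1 ± 5.03) overlapped below it. Itpr3 (1.32 ± 0.391), Itpr2 (0.913 ± 0.493) and Itpr1 (0.72 ± 0.181) stayed the lowest, now with Itpr3 first and each overlapping its neighbor. The exon lengths, 2295 bases in Orai1 to 18319 in Itpr1, are those of all annotated exons together, so the level of a gene with many unused exons is understated.

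Several of the 9 genes are long, and a correction for a length trend in each library moved them. With it the log2 fold changes were -0.14 for Stim1, -0.080 for Itpr1, -0.71 for Itpr2, -0.036 for Mcu and 0.74 for Atp2b1, none of which passed edgeR's test. Orai1 (-1.29) and Atp2a3 (-1.17) were still called lower, and Itpr3 (2.25) was called higher. The correction moved the median of all genes to 0.29, and relative to it Stim1 lay at -0.44, Itpr1 at -0.37 and Mcu at -0.33. Ratios of counts and shares per base of exon were computed without this correction. How they move with it was not tested.

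A wider list of 89 other calcium genes was examined by role. The table held 75 of them and 72 were tested, of which 11 were called higher and 3 lower by edgeR, against 13.2% and 7.31% of all genes tested. Their median log2 fold change was -0.0031, against 0.034 over all genes. Without replicate 3 of the cocultures 13 were called higher and 11 lower, against 20.6% and 15.4% of all genes then tested. Across all genes tested 14.3% passed the test (adjusted p of at most 0.05 at any fold) higher and 8.75% lower, and 13 and 4 of the 72 did. All genes given below as passing the test kept their direction and also passed it without replicate 3 of the cocultures. Genes named in what follows beyond the 3 with the largest log2 fold changes in each role were chosen after their values were seen.

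Among other genes of store-operated entry 1 of 8 tested passed, Asph, whose products include junctate, a protein of the store membrane. It rose from 50.8 ± 14.5 CPM (SD, n = 4) to 141.6 ± 13.1 (log2 fold change 1.48 ± 0.24, SE; edgeR, adjusted p = 0.00263), higher in all 4 cocultures. The paralogs of the members did not pass. Stim2 had a log2 fold change of -0.17 (edgeR, adjusted p = 0.718), Orai2 -0.85 (0.0631) and Orai3 0.029 (0.971), and Orai2 passed without replicate 3 at -0.68 (0.00453).

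Of 9 other entry channels tested Piezo1, a mechanosensitive cation channel, passed, rising from 7.08 ± 3.40 CPM (SD, n = 4) to 104.0 ± 37.3 (log2 fold change 3.87 ± 0.43, SE; edgeR, adjusted p = 0.000351). None of 11 genes that make or remove IP3 passed edgeR's test, although 2 higher and 2 lower were at an unadjusted p under 0.05 and as many passed by DESeq2. Among the latter was Plcg2, the phospholipase downstream of GPVI, at 135.0 ± 27.0 CPM (SD, n = 4) in MKs cultured alone and 44.8 ± 26.0 in cocultures (edgeR, adjusted p = 0.0693, and 5.44e-05 without replicate 3 of the cocultures).

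Of 8 genes of store release and leak, Ahcyl1, which encodes the IP3 receptor binding protein IRBIT, rose with a log2 fold change of 1.89 ± 0.22 (SE; edgeR, adjusted p = 0.000392). Grina, a membrane protein of the endoplasmic reticulum, fell, with -1.30 ± 0.28 (adjusted p = 0.00984). Neither group overlapped the other in these genes. Only 3 other pump and exchanger genes were tested and none passed by edgeR or by DESeq2, nor was any at an unadjusted p under 0.05. Of these, Atp2c1, the pump of the Golgi apparatus, was at 183.1 to 268.3 CPM in MKs cultured alone, at 111.0 to 146.5 CPM in 3 cocultures and at 0.834 CPM in replicate 3. Without that library its log2 fold change was -0.70 and passed (edgeR, adjusted p = 0.00422). Atp2b4 had a log2 fold change of 0.998 ± 0.986 (SE; edgeR, adjusted p = 0.511) with all 8 libraries. Without replicate 3 of the cocultures it changed sign and was called lower, at -1.35 (edgeR, adjusted p = 0.000664).

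Of 13 other mitochondrial calcium genes 3 passed higher and 1 lower. Beside Mcub, these were Smdt1, the EMRE subunit of the uniporter (log2 fold change 0.87 ± 0.26, SE; edgeR, adjusted p = 0.0439), and Vdac1, a channel of the outer membrane (0.71 ± 0.17, adjusted p = 0.0171). Vdac1 no longer passed with replicate 2, 3 or 4 of the MKs cultured alone left out (adjusted p = 0.0614 to 0.0693), nor with length correction (0.0849). Mcur1, a regulator of the uniporter, fell from 85.6 ± 10.7 CPM (SD, n = 4) to 44.9 ± 2.55 (log2 fold change -0.93 ± 0.20, adjusted p = 0.0099), and with length correction it no longer passed (-0.33). Micu2, a regulatory subunit of the uniporter, had a log2 fold change of 0.083 (edgeR, adjusted p = 0.858), with ranges that overlapped. Smdt1 no longer passed with any of 6 libraries left out, although it did without replicate 3 of the cocultures (0.54, adjusted p = 0.00886).

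Of 7 store buffers tested 4 were called higher and none had an adjusted or unadjusted p under 0.05 in the lower direction by edgeR, nor did any pass lower by DESeq2. Over all genes tested 13.2% were called higher. The median log2 fold change of the 7 was 1.54, or 1.76 without replicate 3 of the cocultures. The 4 are the secretory pathway calcium-binding proteins Rcn3 (3.95 ± 0.46, SE; edgeR, adjusted p = 0.000423), Rcn1 (2.57 ± 0.40), Rcn2 (1.75 ± 0.52) and Calu (1.54 ± 0.33). Rcn3 went from 2.20 to 8.27 CPM in MKs cultured alone to 56.5 to 77.3 CPM in cocultures. Rcn2 was at 69.8 CPM in replicate 3 of the cocultures, below every library of MKs cultured alone, and at 382.9 to 480.6 CPM in the others, and its call was lost with any of 7 libraries left out. Calr, the calreticulin gene, was at 410.0 ± 89.5 CPM (SD, n = 4) and 520.6 ± 130 CPM and did not pass (edgeR, adjusted p = 0.345). MSC markers rose in the same libraries as these 4 genes, and their part was not tested.

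Among 13 calcium sensors and effectors 3 passed higher and 2 lower. Rasgrp2, which encodes CalDAG-GEFI, the calcium-dependent activator of the platelet GTPase Rap1, fell from 21.7 ± 2.81 CPM (SD, n = 4) to 6.70 ± 1.91 (log2 fold change -1.69 ± 0.40, SE; edgeR, adjusted p = 0.0166). Ppp3ca, a catalytic subunit of calcineurin, fell with -1.27 ± 0.19 (adjusted p = 0.00186), and its inhibitor gene Rcan1 rose with 1.28 ± 0.37 (adjusted p = 0.0364). With length correction Ppp3ca had -0.67 and no longer passed (adjusted p = 0.183), and neither did Rcan1 (0.0636), which also failed with any of 7 libraries left out, that is all but replicate 3 of the cocultures. Capn2, the large subunit of calpain-2, rose from 34.7 ± 10.98 CPM to 296.2 ± 55.8 (3.09 ± 0.27, adjusted p = 9.7e-05). Calm3, a calmodulin gene, passed narrowly at 1.67 ± 0.53 (adjusted p = 0.0499), with 387.7 CPM in replicate 3 of the cocultures against 79.1 to 100.6 CPM in the others, and had 0.78 without that library (adjusted p = 0.00221). Calm3 no longer passed with any of 6 libraries left out, nor with length correction (adjusted p = 0.0713). Rasgrp2 no longer passed with any of 4 libraries left out, nor with length correction (-0.92).

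**Figure D4:**
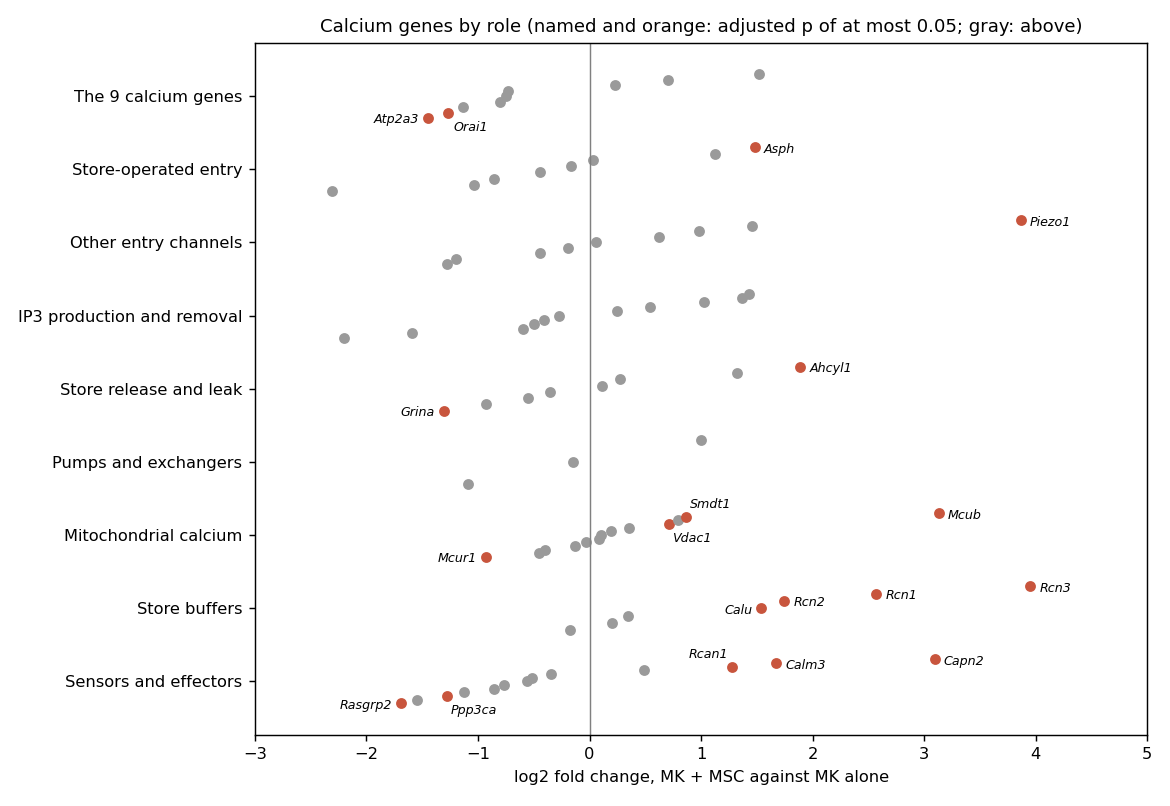
Log2 fold change (x axis) in cocultures against MKs cultured alone for the 9 calcium genes and for 72 other calcium genes in 8 roles (rows), each point 1 gene; orange points with names had an adjusted p of at most 0.05 by edgeR with all 8 libraries. Store buffers hold 4 such genes, all higher, while Atp2a3 and Orai1 are lower in the top row.

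The genes whose levels followed each of the 9 most closely were found among 9611 genes with at least 10 CPM in a group, by the root mean square difference of log2(CPM + 1) over the 8 libraries after centering each gene. Nearest to Mcu was Runx1 (0.092), to Stim1 Taok3 (0.104), to Orai1 Wdfy4 (0.11) and then Itgb2 (0.126), and to Atp2a3 Mfsd2b (0.148). Nearest to Atp2a2 was Senp5 (0.106), to Itpr3 Ncln (0.139), to Itpr2 Eml4 (0.165), to Atp2b1 Pitpnb (0.164) and to Itpr1 Uchl3 (0.205). Among the 9 genes themselves the closest pair was Orai1 and Atp2a3 (0.274), and the member nearest to Atp2a2 was Itpr2, at 1.37.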

How the data were processed

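RNA-Seq was performed on 4 libraries of murine MKs cultured alone and 4 of MKs cocultured with MSCs, grouped and numbered by their labels. Per the methods, paired-end SMART-Seq HT reads were trimmed by fastp and assigned to mm10 transcripts by kallisto, and the authors deposited raw whole-number counts per gene. Summing over transcripts, rounding, low-count filters and strand are not given in the sources used here. The lowest total of a gene was 11 counts. Between 0.283 and 0.66 CPM correspond to 3 counts, a floor for counting error only.

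Differences in counts were tested by the quasi-likelihood F test of edgeR 4.0.16 (R 4.3.3) with robust dispersions, after filterByExpr and TMM scaling, and p-values were adjusted over all genes tested by Benjamini-Hochberg, with all 8 libraries and no covariate, because the batches of the authors' DESeq2 design are not named. Calls used the study's cutoffs with CPM in place of TPM. Ratios were computed with 0.5 counts added. On simulated counts with 200 genes changed 4-fold, edgeR called all 200 of them and 3 others among 11372 genes. The simulation used the means of MKs cultured alone and a common dispersion. Only well-counted genes were changed, as many raised as lowered. It held no library like replicate 3 of the cocultures. How the test performs with such a library or on smaller folds was therefore not tested. Exon lengths and positions came from GENCODE M21 (GRCm38, the build of mm10). Alternatives were DESeq2 1.42.0, other scalings, filters and thresholds, the replicate number as a block, a gene length correction, and each library left out. The members and gene lists were chosen with earlier results of these data known. Named genes were the 9 members, up to 3 genes of each role with the largest log2 fold changes that passed the test at 10 CPM or more, and the genes nearest to each member. Of the 2 nearest genes of each member the nearest is given, with the next for Orai1. The rule's highest gene of each marker list was Pf4, Sparc, Lyz2, S100a8, Ms4a1, Prg2, Hbb-bs and Pecam1. Permutation tests were run in scipy 1.17.1 (Python 3.11).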

Additional observations from a re-analysis of the deposited data

Results flagged for a closer look

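For each of the 9 genes, each ratio and each marker score, the highest and lowest library of a group was compared with its neighbors, in 44 sets of 4 libraries. In 5 sets a library lay far outside the rest, with a gap to its neighbor of 0.835 to 0.983 of the range of the set. Chance alone would give about 1 in 20, or 2.2, if the sets were independent. They were not, since they come from the same libraries and the level and ratio of Atp2a2 share its counts. The 5 therefore cannot be set against 2.2. Replicate 3 of the cocultures was that library all 5 times. Its log2(CPM + 1) of Atp2a2 was 1.97, and its log2 ratio of Atp2a2 to Atp2a3 counts was -3.65. Its mean log2(CPM + 1) was 6.84 for neutrophil markers, 2.68 for B cell markers, and 1.69 for eosinophil, mast cell and basophil markers. Each of these values was below those of the other cocultures.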

How the results depend on the processing

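Of 9 members, 2 were called lower and 0 higher by edgeR (5 lower and 1 higher at an unadjusted p under 0.05). The number called higher was 1 with DESeq2, with scaling to MK and platelet markers, with at least 10 counts in every library and with gene length correction, and 0 to 2 when 1 library was omitted. Lower calls numbered 3 with DESeq2, 1 with marker scaling, 0 with glmTreat, 1 with length correction plus replicate block, and 2 to 3 when 1 library was omitted. Of the other calcium genes, the 11 called higher became 6 with glmTreat and 8 to 13 when 1 library was omitted, and the 3 called lower became 8 with DESeq2, 5 with at least 10 counts in every library, 0 with glmTreat, 1 with length correction plus replicate block, and 2 to 11 when 1 library was omitted. The 1544 genes called higher of all genes became 837 with length correction plus replicate block, 818 with glmTreat, and 1071 to 2530 when 1 library was omitted. The 857 called lower became 547 with marker scaling, 325 with length correction plus replicate block, 303 with glmTreat, and 539 to 1890 when 1 library was omitted. Of all calls 64.3% were higher, against 79.7% with marker scaling, which moved the median of all genes to 0.31. The cause of these shifts was not tested.

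No log2 fold change of the 9 members changed sign under these alternatives. In the 9 members 136 values kept their side of edgeR's threshold, 16 newly passed it, 6 of them without replicate 3 of the cocultures, and 1 no longer passed, Orai1 with length correction and replicate block (-1.28, adjusted p = 0.054). The differences of the 4 ratios kept their sign, including with 0.1 or 5 counts added. Replicate numbers were shared by the groups. Deviations of same-numbered libraries correlated across genes at 0.37, 0.0198, 0.15 and 0.028, above 0.1 in 2 of 4 pairs. Those of differently numbered libraries correlated at -0.282 to 0.099. The numbers were not taken to pair the libraries in the main test, and whether they mark batches cannot be told from the labels. With the replicate number as a block, 2 members were again called lower (Orai1 -1.28, Atp2a3 -1.52) and 0 higher, and 1096 and 573 of all genes were called higher and lower. Itpr3, with 15 to 44 counts in MKs cultured alone, had the fewest counts of the members there, and whether depth limited its test was not tested.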

Other observations

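Without replicate 3 of the cocultures, 11 of the 72 other calcium genes tested changed the sign of their log2 fold change, and none of the 9 members did. In that library Orai3 made up 71.7% of the ORAI counts per base of exon, against 32.2% to 35.2% in the other cocultures and 23.5% to 29.1% in MKs cultured alone. Orai1 made up 51.9% to 57.2% in MKs cultured alone and 44.5% to 48.9% in replicates 1, 2 and 4 of the cocultures. Stim2 exceeded Stim1 per base of exon in every library, with Stim1 at 14.7% to 28.0% of both. Atp2b4, a further plasma membrane pump gene, was at 126.1 CPM in replicate 3 of the cocultures, at 5.53 to 9.26 CPM in the other cocultures and at 14.4 to 23.3 CPM in MKs cultured alone. These genes were chosen after their values were seen.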
